A study of Mus musculus with 26 samples.

Results

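Mitochondria import nearly all of their proteins from the cytosol, and the genes described here encode the machinery that takes those proteins in, cuts, folds and degrades them, and shapes the organelle. They were chosen by symbol: every gene whose symbol begins with Timm or Tomm and a digit, together with a named set of chaperones, processing peptidases, proteases, cristae organizers, prohibitins and fusion and fission factors. In the tables of brown fat read counts, 46 of 9378 listed genes met this rule. All 46 were listed in a table with an IgG control, and 27 of them were also among the 1189 genes of a table with both genotypes. RefSeq holds 50 protein-coding mouse symbols that meet the rule.

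The study examined mice that lack IMP2 (IGF2BP2), an RNA-binding protein of the insulin-like growth factor 2 mRNA-binding family, and sequenced RNA from brown fat before and after immunoprecipitation. The both-genotype table holds 2 libraries each of IMP2 immunoprecipitate from Imp2-/- mice (knockout, libraries 23 and 24), total RNA from knockout mice (18 and 19), IMP2 immunoprecipitate from wild-type mice (21 and 22) and total RNA from wild-type mice (16 and 17). The IgG table holds wild-type tissue alone: 1 IMP2 immunoprecipitate (library 25), 1 immunoprecipitate with nonspecific IgG (26) and total RNA in 2 libraries (15 and 20). All brown fat came from 10-week-old males on normal chow and a C57Bl/6J background, kept at 4 °C overnight. Knockouts and wild types were littermates from matings of heterozygotes. Nothing in the labels ties a library to an animal, and the p-values therefore reflect how much these libraries vary, which may be technical.

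Summed counts over the listed genes ran from 780161 to 4915604 in the both-genotype table and from 1321363 to 3749073 in the IgG table. Of 10 brown adipocyte markers, all were listed in the IgG table and 6 in the both-genotype table, and none stood at 0. Their summed level was 38251 to 49048 CPM (counts scaled to a common library size) in the both-genotype libraries. Igf2bp2 itself was not among the genes of the both-genotype table, so the genotype labels could not be checked by it. No macrophage or endothelial marker was listed there, and 3 of 6 red blood cell markers were. In the IgG table, 4 of 8 macrophage, 4 of 5 endothelial and 5 of 6 red blood cell markers were listed. Igf2bp2 had 8 counts there in the IMP2 immunoprecipitate, 16 in the IgG immunoprecipitate, and 20 and 16 in total RNA.

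A protein bound for the mitochondrial matrix passes the outer membrane through the TOM complex and the inner membrane through the TIM23 complex, pulled by the matrix chaperone mortalin (Hspa9). Its targeting signal is then cut off, and the HSP60 and HSP10 chaperonin helps it to fold. Carrier proteins travel instead with the small TIM chaperones to the TIM22 complex, and worn or misfolded proteins are degraded by LONP1, CLPXP and the membrane-bound AAA proteases. Brown fat, the heat-producing adipose tissue, is dense with mitochondria and so depends on this machinery.

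The chaperonin pair offers a direct view of how members can share regulatory DNA. Hspd1, which encodes HSP60, and Hspe1, which encodes HSP10, are transcribed away from each other from a common promoter. RefSeq gives 2 starts for Hspd1, and the outer one lies inside Hspe1. The stretch of 215 bases between the Hspe1 start and the other Hspd1 start is shown because it holds a heat shock element, the motif bound by heat shock factors. It is given on the plus strand of GRCm38.p6, from RefSeq, with the element in capitals.
Hspe1 and Hspd1, chr1:55087933-55088147: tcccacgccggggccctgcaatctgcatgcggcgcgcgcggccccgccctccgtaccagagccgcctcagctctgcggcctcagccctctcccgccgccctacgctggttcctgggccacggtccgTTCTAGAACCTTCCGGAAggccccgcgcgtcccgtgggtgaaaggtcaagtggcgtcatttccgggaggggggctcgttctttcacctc
The capitals are 18 bases that begin 89 bases before the Hspe1 start and hold 2 overlapping matches, 1 on each strand, to the motif, searched as 3 units, GAA, TTC and GAA, set 2 bases apart. Promoter sequences, from 250 bases before to 50 bases after the start, were found for 42 members. That motif was in the promoters of 3 of the 42 members (Hspd1, Hspe1 and Timm9, 7.14%) and of 0.662% of all 27025 genes, searched on both strands. The printed element lies in the windows of both Hspd1 and Hspe1, so these members are not separate sites. The motif of nuclear respiratory factor 1, a regulator of nuclear genes for mitochondrial proteins, was searched as GCGCA and GCGC with any 1 base between them. It was in the promoters of 9 of 42 members (21.4%: Chchd4, Dnaja3, Hspd1, Immt, Opa1, Phb, Spg7, Timm8b and Tomm20) and of 5.19% of all genes. The ETS motif CCGGAAGT was in the promoters of 6 of 42 members (14.3%: Mfn1, Phb2, Pmpcb, Timm10, Timm23 and Tomm70a) and of 4.31% of all genes. These matches describe letters in a window and carry no test.

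The first question is which of these mRNAs the IMP2 antibody recovered above their level in the tissue, and whether they did so in tissue without IMP2. Recovery is the log2 ratio of immunoprecipitate over total RNA, from edgeR's quasi-likelihood test on the counts with Benjamini-Hochberg adjustment over all 1189 genes, and a gene is called at an adjusted p under 0.05. In knockout tissue 8 of 27 members were higher in the immunoprecipitate, where 10.6% of all genes were, and 2 were lower, where 15.7% of all genes were. In wild-type tissue 8 members were higher, where 10.0% of all genes were, and 0 were lower, where 12.4% of all genes were. At an unadjusted p under 0.05, 13 members were higher and 3 lower in knockout tissue, where 492 of all 1189 genes passed in either direction, and 11 were higher and 1 lower in wild-type tissue, where 456 of all genes passed. Under upper-quartile scaling the members split as 14 higher and 0 lower in knockout and 11 higher and 0 lower in wild-type tissue, with all-gene medians 0.17 and 0.14 above those of the main scaling. The median recovery of the members was 0.36 in knockout and 0.27 in wild-type tissue, against -0.01 and 0.01 over all genes.

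The 8 members called higher in knockout tissue were the same 8 called in wild-type tissue: Trap1, Mipep, Immt, Lonp1, Timm10, Tomm40, Phb and Timm44. Over all genes, 77 were called higher in both genotypes, which is 61.1% of the knockout list and 64.7% of the wild-type list. Across the 27 members the recoveries in knockout and wild-type tissue had a Pearson correlation of 0.912 and a Spearman correlation of 0.924, and across all 1189 genes 0.904 and 0.880. Genes are not independent replicates, and the libraries of both genotypes share the antibody and the protocol, so no p is given. The table is also a selected list, in which knockout minus wild-type recovery runs from -0.81 to 0.30 over all 1189 genes. A gene with a much higher knockout recovery could not be seen in it. How far this listing sets the correlations and the shared calls was not tested.

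**Figure D1:**
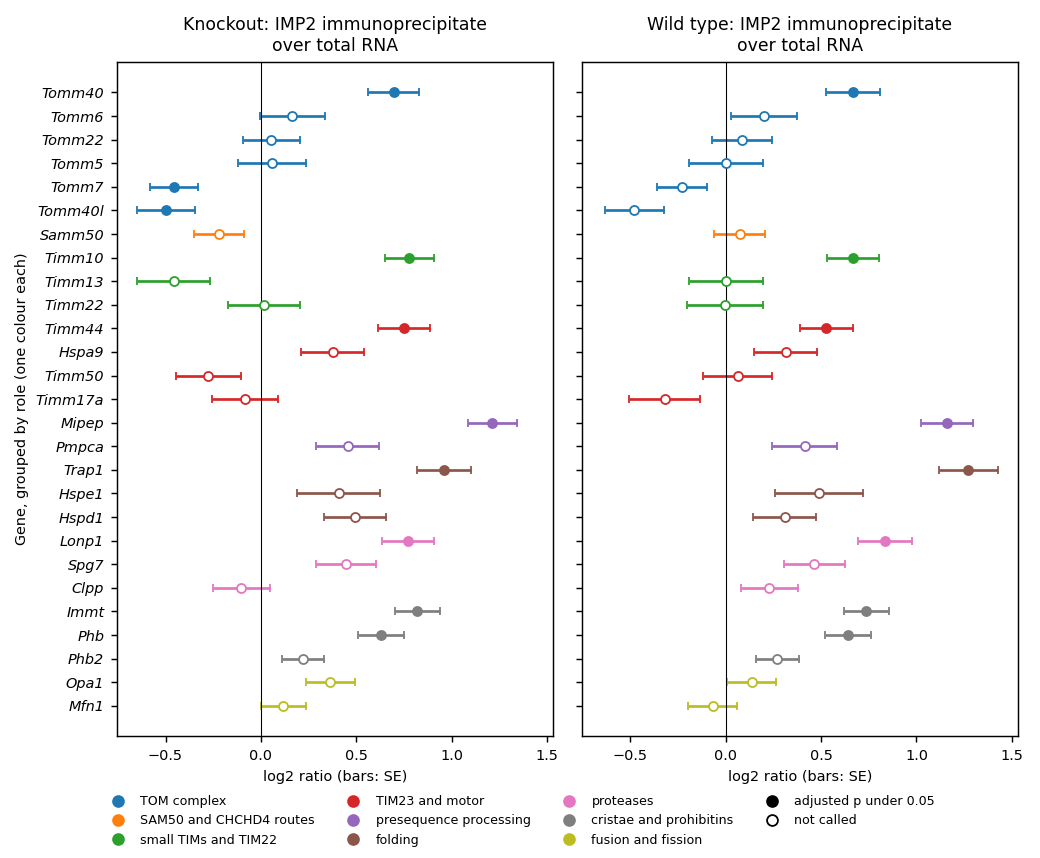
Recovery of 27 members, as the log2 ratio of IMP2 immunoprecipitate over total RNA, in knockout (left) and wild-type (right) tissue, with standard errors as bars and filled points for an adjusted p under 0.05. The same 8 genes are filled on the right of 0 in both panels, led by Mipep at 1.21 in knockout and Trap1 at 1.27 in wild-type tissue.

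TOM complex members did not share a direction. Tomm40 encodes the pore of the complex. It had 249 and 251 CPM in knockout immunoprecipitates and 144 and 164 CPM in knockout total RNA. In wild-type tissue it had 306 and 256 CPM in immunoprecipitates and 168 and 187 CPM in total RNA. The immunoprecipitate stood above total RNA in every library of both genotypes, by 0.70 ± 0.13 in knockout (log2 ± SE, n = 2 libraries a group, edgeR adjusted p = 0.00739) and 0.67 ± 0.14 in wild-type tissue (adjusted p = 0.0115). Immunoprecipitate and total RNA values did not overlap, in either direction, for 66.7% of all genes in knockout and 66.0% in wild-type tissue.

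Tomm40l, a second gene for a TOM40-type pore protein, lay on the other side of 0. It had 471 and 476 CPM in knockout immunoprecipitates, 710 and 630 CPM in knockout total RNA, 458 and 354 CPM in wild-type immunoprecipitates, and 577 and 556 CPM in wild-type total RNA. Its recovery was -0.50 ± 0.15 in knockout tissue (edgeR adjusted p = 0.0412) and -0.48 ± 0.15 in wild-type tissue (adjusted p = 0.0543). Its gene overlaps Apoa2 by 951 bases in RefSeq, and where reads were counted without strand those of the shared bases could be credited to either gene. Tomm7, a small subunit that tunes the assembly of the complex, had 295 and 306 CPM in knockout immunoprecipitates and 406 and 417 CPM in knockout total RNA. In wild-type tissue it had 302 and 294 CPM in immunoprecipitates and 334 and 366 CPM in total RNA. Its recovery of -0.46 ± 0.13 was called in knockout tissue (adjusted p = 0.0298), and that of -0.23 ± 0.13 was not in wild-type tissue (adjusted p = 0.219). Both calls are lost with any 1 knockout library left out, at an adjusted p of up to 0.212 for Tomm40l and 0.182 for Tomm7, and with upper-quartile scaling (0.163 and 0.119). The remaining TOM members, Tomm5, Tomm6 and the receptor Tomm22, lay between 0.05 and 0.16 in knockout and between 0.00 and 0.20 in wild-type tissue, with no call.

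Other routes through the outer membrane and intermembrane space followed. Samm50, the core of the machinery that inserts outer membrane barrels, had a recovery of -0.22 ± 0.13 in knockout and 0.07 ± 0.13 in wild-type tissue, with no call. Among the small TIM genes, Timm10 encodes a chaperone that escorts carrier proteins. It had 225 and 232 CPM in knockout immunoprecipitates and 122 and 143 CPM in knockout total RNA, and 237 and 221 CPM in wild-type immunoprecipitates and 136 and 154 CPM in wild-type total RNA. All immunoprecipitates lay above all total RNA libraries, by 0.78 ± 0.13 in knockout (edgeR adjusted p = 0.00386) and 0.67 ± 0.14 in wild-type tissue (adjusted p = 0.0107). Such a lack of overlap, in either direction, held for 66.7% of all genes in knockout and 66.0% in wild-type tissue. Timm13, a partner of TIMM8 in the same compartment, had 3181 and 2642 CPM in knockout immunoprecipitates and 4709 and 3290 CPM in knockout total RNA, with a recovery of -0.46 ± 0.19 (adjusted p = 0.108). Without library 19 it was called lower (-0.69, adjusted p = 0.0335). In wild-type tissue its recovery was 0.00 ± 0.19. Timm22, the carrier translocase of the inner membrane, had 0.02 ± 0.19 in knockout and -0.00 ± 0.20 in wild-type tissue.

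In the TIM23 complex and its motor, 1 of 4 listed members was called in either genotype. Timm44 tethers mortalin to the channel. It had 907 and 791 CPM in knockout immunoprecipitates and 538 and 473 CPM in knockout total RNA, and 1000 and 1097 CPM in wild-type immunoprecipitates and 664 and 790 CPM in wild-type total RNA. Its recovery was 0.75 ± 0.14 in knockout (edgeR adjusted p = 0.00585) and 0.53 ± 0.14 in wild-type tissue (adjusted p = 0.0295). The wild-type call is lost without library 16, 21 or 22 (highest adjusted p = 0.172). Hspa9, the motor itself, had 0.38 ± 0.16 in knockout and 0.32 ± 0.17 in wild-type tissue, with no call by edgeR. DESeq2 called Hspa9 higher in knockout tissue (adjusted p = 0.0419). Timm50, a receptor of the channel, and Timm17a, a channel subunit, were also not called, at -0.27 and -0.08 in knockout and 0.06 and -0.32 in wild-type tissue.

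Presequence processing held the gene with the highest knockout recovery of the 27 members. Mipep, the mitochondrial intermediate peptidase that trims a further stretch from some imported proteins, had 197 and 190 CPM in knockout immunoprecipitates and 82.0 and 85.0 CPM in knockout total RNA. In wild-type tissue it had 222 and 199 CPM in immunoprecipitates and 91.9 and 97.2 CPM in total RNA. The immunoprecipitates were more than double the total RNA libraries in both genotypes, by 1.21 ± 0.13 in knockout (edgeR adjusted p = 0.000601) and 1.16 ± 0.14 in wild-type tissue (adjusted p = 0.00125). Pmpca, a subunit of the main processing peptidase, had 0.45 ± 0.17 in knockout and 0.41 ± 0.17 in wild-type tissue, with no call by edgeR. DESeq2 called it higher in both (adjusted p = 0.0134 and 0.0389). The annotated gene Pmpca overlaps Inpp5e by 873 bases, so its counts are uncertain where strand was not used.

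Trap1, the mitochondrial member of the HSP90 family, stood out among the folding genes. It had 206 and 237 CPM in knockout immunoprecipitates and 106.2 and 121 CPM in knockout total RNA, and 209 and 192 CPM in wild-type immunoprecipitates and 78.0 and 88.5 CPM in wild-type total RNA. Its recovery was 0.96 ± 0.14 in knockout (edgeR adjusted p = 0.0024) and 1.27 ± 0.16 in wild-type tissue (adjusted p = 0.00147). Its annotated gene overlaps Dnase1 by 54 bases. Hspd1 and Hspe1, whose shared promoter is printed above, had 0.49 ± 0.16 and 0.41 ± 0.22 in knockout tissue and 0.31 ± 0.16 and 0.49 ± 0.23 in wild-type tissue, with no call. DESeq2 (adjusted p = 0.00541) and limma-voom (0.0458) called Hspd1 higher in knockout tissue. The annotated genes Hspd1 and Hspe1 overlap by 96 bases, which come from the outer Hspd1 start.

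Of the matrix and inner membrane proteases, Lonp1 was called. It encodes the ATP-dependent matrix protease that removes damaged proteins. It had 284 and 304 CPM in knockout immunoprecipitates and 154 and 190 CPM in knockout total RNA, and 296 and 293 CPM in wild-type immunoprecipitates and 174 and 156 CPM in wild-type total RNA. The recovery was 0.77 ± 0.14 in knockout (edgeR adjusted p = 0.00502) and 0.84 ± 0.14 in wild-type tissue (adjusted p = 0.0056). Spg7, a subunit of the inner membrane AAA protease that faces the matrix, had 0.44 ± 0.16 and 0.46 ± 0.16 with no call. DESeq2 called it higher in both genotypes (adjusted p = 0.00786 in knockout and 0.0101 in wild-type tissue), and limma-voom in knockout tissue alone (0.0430). Clpp, the peptidase of CLPXP, had -0.10 ± 0.15 in knockout and 0.23 ± 0.15 in wild-type tissue.

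Immt, which encodes mitofilin, the scaffold of the cristae junctions, had 743 and 693 CPM in knockout immunoprecipitates and 395 and 418 CPM in knockout total RNA. In wild-type tissue it had 706 and 710 CPM in immunoprecipitates and 431 and 418 CPM in total RNA. The recovery was 0.82 ± 0.12 in knockout (edgeR adjusted p = 0.00224) and 0.74 ± 0.12 in wild-type tissue (adjusted p = 0.00463). Phb and Phb2 encode the 2 partner subunits of the prohibitin ring of the inner membrane. Phb had 788 and 920 CPM in knockout immunoprecipitates and 540 and 564 CPM in knockout total RNA, and 881 and 879 CPM in wild-type immunoprecipitates and 572 and 557 CPM in wild-type total RNA. It was called at 0.63 ± 0.12 in knockout (edgeR adjusted p = 0.00644) and 0.64 ± 0.12 in wild-type tissue (adjusted p = 0.00773), while Phb2 had 0.22 ± 0.11 and 0.27 ± 0.11 with no call. Whether the partners differ in recovery was not tested. Of the dynamics genes, Opa1 of inner membrane fusion had 0.36 ± 0.13 in knockout and 0.14 ± 0.13 in wild-type tissue. Mfn1 of outer membrane fusion had 0.12 ± 0.12 and -0.07 ± 0.13. Neither was called by edgeR under the main scaling. Opa1 was called higher in knockout tissue by DESeq2 (adjusted p = 0.0302), and by edgeR with upper-quartile scaling (0.0153) and with library size alone (0.0215).

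**Figure D2:**
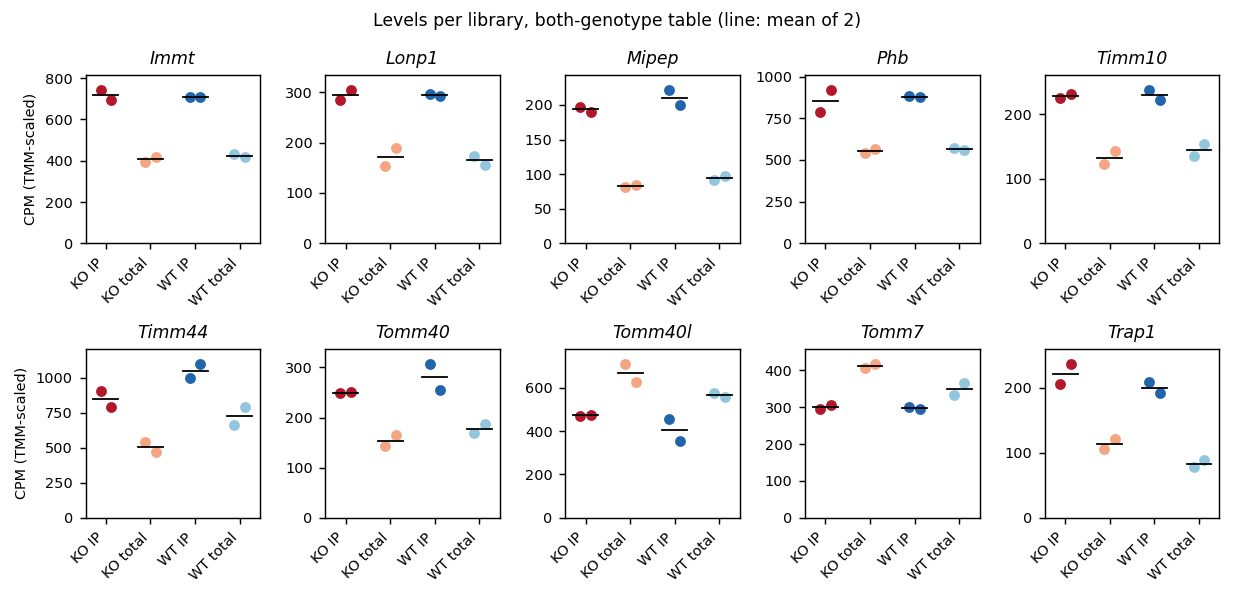
Level in CPM (linear axes from 0) of the 10 members called in either genotype, with 1 point per library and a line at the mean of 2, in knockout immunoprecipitate, knockout total RNA, wild-type immunoprecipitate and wild-type total RNA. Trap1, for example, has 206 and 237 CPM against 106.2 and 121 CPM in knockout tissue.

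With library 16 left out, 4 members were called higher in wild-type tissue: Trap1, Mipep, Lonp1 and Immt. Phb (adjusted p = 0.0508), Timm10 (0.0934), Timm44 (0.172) and Tomm40 (0.0948) were not. The wild-type calls of Timm10 (adjusted p = 0.0541) and Tomm40 (0.0642) were also lost without library 21. Without library 24 the knockout call of Phb is lost (adjusted p = 0.0584), and without library 18 that of Tomm40 (0.0520).

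A list of 49 related symbols, such as cofactors of import and the mitochondrial stress response, was examined for comparison, and 15 were listed in the both-genotype table. Of these, 1 was higher and 5 lower in knockout tissue, where 10.6% and 15.7% of all genes were. In wild-type tissue 0 were higher and 5 lower, where 10.0% and 12.4% of all genes were. The gene higher in knockout tissue was Stoml2, a stomatin-like protein of the inner membrane, at 0.53 ± 0.16 (edgeR adjusted p = 0.0415). The 5 lower genes were the same in both genotypes. Over all genes 124 were lower in both, which is 66.3% of the knockout list and 83.8% of the wild-type list. Dnajc15, a J-domain protein of the import motor, was at -0.89 ± 0.14 in knockout (edgeR adjusted p = 0.00303) and -0.70 ± 0.14 in wild-type tissue (adjusted p = 0.00971). Dnlz, a partner that keeps mortalin soluble, was at -0.94 ± 0.15 and -0.58 ± 0.15. Chchd6, a cristae organizer, was at -0.72 ± 0.14 and -0.73 ± 0.15. The others were Chchd2, a protein of the intermembrane space, and 2410015M20Rik.

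The second question is whether knockout and wild-type tissue differed. Under edgeR, 0 of 27 members differed in recovery, in the immunoprecipitate or in total RNA, and the same was true of all 1189 genes, so 0% of all genes were called in each of these comparisons and directions. At an unadjusted p under 0.05, 29 genes were found for recovery, 210 for the immunoprecipitate and 132 for total RNA. Among members there were 0 for recovery, 1 higher and 2 lower in the immunoprecipitate, and 1 higher and 2 lower in total RNA. DESeq2 and limma-voom called 0 members for recovery. DESeq2 called Samm50 lower in the knockout immunoprecipitate (adjusted p = 0.0458) and Timm44 lower in knockout total RNA (adjusted p = 0.0151).

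Differences in recovery, as knockout minus wild type, ran from -0.46 ± 0.27 for Timm13 to 0.24 ± 0.25 for Timm17a, with adjusted p of 0.999 for each member. For the called members the difference was 0.05 ± 0.19 for Mipep, 0.08 ± 0.17 for Immt, -0.01 ± 0.17 for Phb, 0.03 ± 0.19 for Tomm40, 0.11 ± 0.19 for Timm10, 0.22 ± 0.19 for Timm44, -0.07 ± 0.20 for Lonp1 and -0.31 ± 0.21 for Trap1. The error exceeded the difference except for Timm44 and Trap1. The both-genotype table is a selected list: its differences in recovery end at 0.30 on the upper side and reach -0.81 on the lower side, so a gene with a much higher knockout recovery could not be seen in it.

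In the immunoprecipitates, Samm50 had 768 and 715 CPM in knockout against 876 and 1106 CPM in wild-type tissue, a difference of -0.42 ± 0.13 (edgeR adjusted p = 0.175). Timm17a had 206 and 226 CPM against 149 and 152 CPM, a difference of 0.52 ± 0.19 (adjusted p = 0.214). In total RNA, Timm44 had 538 and 473 CPM in knockout against 664 and 790 CPM in wild-type tissue, a difference of -0.52 ± 0.14 (adjusted p = 0.288). Trap1 had 106.2 and 121 CPM against 78.0 and 88.5 CPM, a difference of 0.46 ± 0.15 (adjusted p = 0.359). None was called by edgeR. The values of these members did not overlap between genotypes, but neither did those of 51.2% of all genes in the immunoprecipitates and 43.1% in total RNA.

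Of 16 muscle markers, 8 were listed in the both-genotype table and none was at 0. Their summed level was 363 and 1384 CPM in knockout immunoprecipitates and 597 and 2471 CPM in knockout total RNA, against 1540 and 7249 CPM in wild-type immunoprecipitates and 2701 and 10518 CPM in wild-type total RNA. Their median knockout difference was -2.21 in the immunoprecipitate and -2.01 in total RNA, with 0 of 8 called by edgeR. The part of muscle RNA in the differences above was not tested. In such bulk samples, fewer cells of a type and less RNA per cell cannot be told apart.

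**Figure D3:**
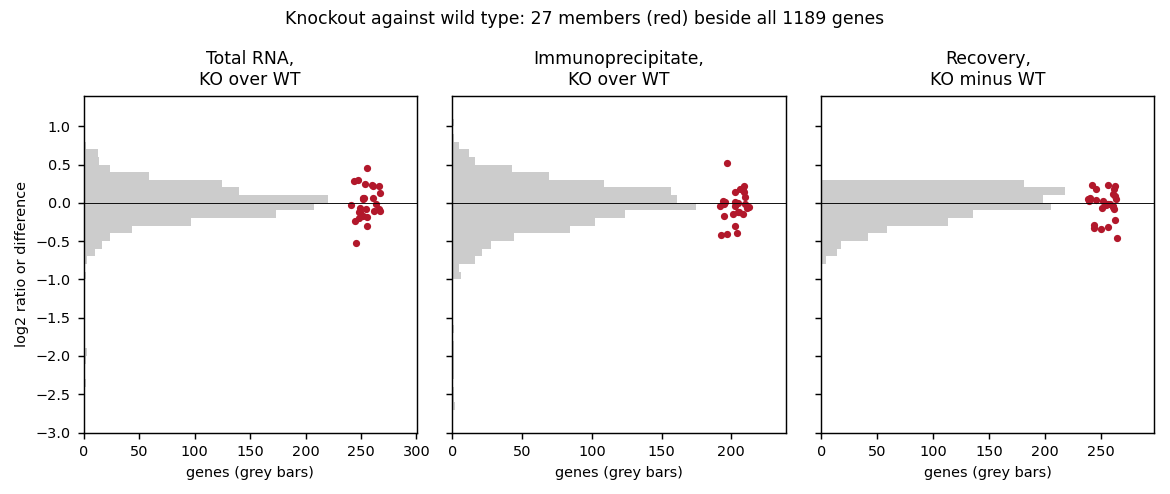
Knockout against wild type, as log2 ratios of total RNA (left) and immunoprecipitate (middle) and as the difference of recoveries (right). Grey bars count all 1189 genes and red points are the 27 members, which spread between -0.52 and 0.52, and the grey bars of the right panel end at 0.30.

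The third question is whether the IMP2 antibody recovered these mRNAs beyond IgG. The IgG table adds 19 members to the 27. In edgeR's test, with 1 library per immunoprecipitate, 0 of 46 members were called for IMP2 over total RNA in either direction, where 0.0446% of 8965 genes were higher and 0.859% lower. For IgG over total RNA, 0 of 46 were called in either direction, where 0.480% of all genes were higher and 1.53% lower. At an unadjusted p under 0.05, 6 members were higher and 1 lower for IMP2, where 708 of 8965 genes passed in either direction, and 4 were higher and 4 lower for IgG, where 1293 passed. DESeq2 and limma-voom called 0 members in either comparison. The test has 1 residual degree of freedom, and assumes that the lone immunoprecipitates vary like total RNA.

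For IMP2 against IgG there is 1 library each and no test. Past 1.5-fold, 6 of 46 members were higher in the IMP2 immunoprecipitate, where 15.8% of all genes were, and 1 was lower, where 20.8% of all genes were. The higher members were 4 of the TOM complex, Timm13 and Timm44. Exact counting intervals lay above 1 for 18 members and below 1 for 7, and spanned 1 for 21, against 19.4% of all genes above and 15.1% below. These intervals cover counting error only and narrow as counts rise: that of Hspa9 lay above 1 at a ratio of 1.16 (1.11 to 1.20). The shares therefore depend on depth, which was not matched between members and all genes. With library size alone as the scaling, 3 members were higher and 4 lower, and with upper-quartile scaling 4 and 3. The 16 muscle markers, all listed, summed to 10235 CPM with IMP2, 7186 CPM with IgG, and 19277 and 10382 CPM in total RNA, and their part in these ratios was not tested.

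The ratios differed between members, but they compare single libraries and carry no test. The share of members past the fold limit was below that of all genes on either side. None of the higher members was called in the fit of both tables described below. Tomm6, a small TOM subunit, had 711 CPM in the IMP2 immunoprecipitate, 323 CPM with IgG, and 773 and 519 CPM in total RNA. Its ratio of IMP2 over IgG was 2.20, with an interval of 2.02 to 2.40. The IMP2 value lies within the range of total RNA, and the IgG value lies below it. Timm13 had 2556 CPM with IMP2, 1237 CPM with IgG and 2474 and 2142 CPM in total RNA, a ratio of 2.07 (1.98 to 2.16). Again the IgG value was the one that stood apart from total RNA. Tomm6 and its antisense gene Tomm6os overlap by 777 bases, so its counts are uncertain where strand was not used.

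Timm44 and Tomm40 stood above both IgG and total RNA with IMP2. The IMP2 value lay outside the range of total RNA for 69.8% of all genes. Timm44 had 786 CPM with IMP2, 451 CPM with IgG and 356 and 332 CPM in total RNA, a ratio over IgG of 1.74 (1.61 to 1.88). Tomm40 had 145 CPM with IMP2, 94.5 CPM with IgG and 49.98 and 75.4 CPM in total RNA, a ratio of 1.53 (1.28 to 1.83). Tomm5 had a ratio of 1.69 (1.28 to 2.21) and Tomm7 of 1.51 (1.28 to 1.78). Timm10, at 1.49 (1.20 to 1.84), lay just short of 1.5-fold, and Phb had 1.36.

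Trap1, Mipep, Lonp1 and Immt stood above total RNA with both antibodies. So did Timm44 and Tomm40, and other members such as Phb, Timm10, Hspa9 and Hspd1, so this does not set the genes below apart. Trap1 had 104.6 CPM with IMP2, 127 CPM with IgG and 48.6 and 76.2 CPM in total RNA, a ratio of IMP2 over IgG of 0.83, with an interval that begins at 0.68 and spans 1. Mipep had 114 CPM with IMP2, 104.3 CPM with IgG and 45.8 and 61.4 CPM in total RNA, a ratio of 1.09 (0.90 to 1.32). Both immunoprecipitates exceeded both total RNA libraries for these genes. Values did not overlap total RNA, in either direction, for 69.8% of all genes with IMP2 and 74.2% with IgG. Immt had 390 CPM with IMP2, 384 CPM with IgG and 237 and 203 CPM in total RNA, a ratio of 1.02, with an interval that spans 1. Lonp1 had 160 CPM with IMP2, 196 CPM with IgG and 101 and 119 CPM in total RNA, a ratio of 0.82 (0.70 to 0.95).

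**Figure D4:**
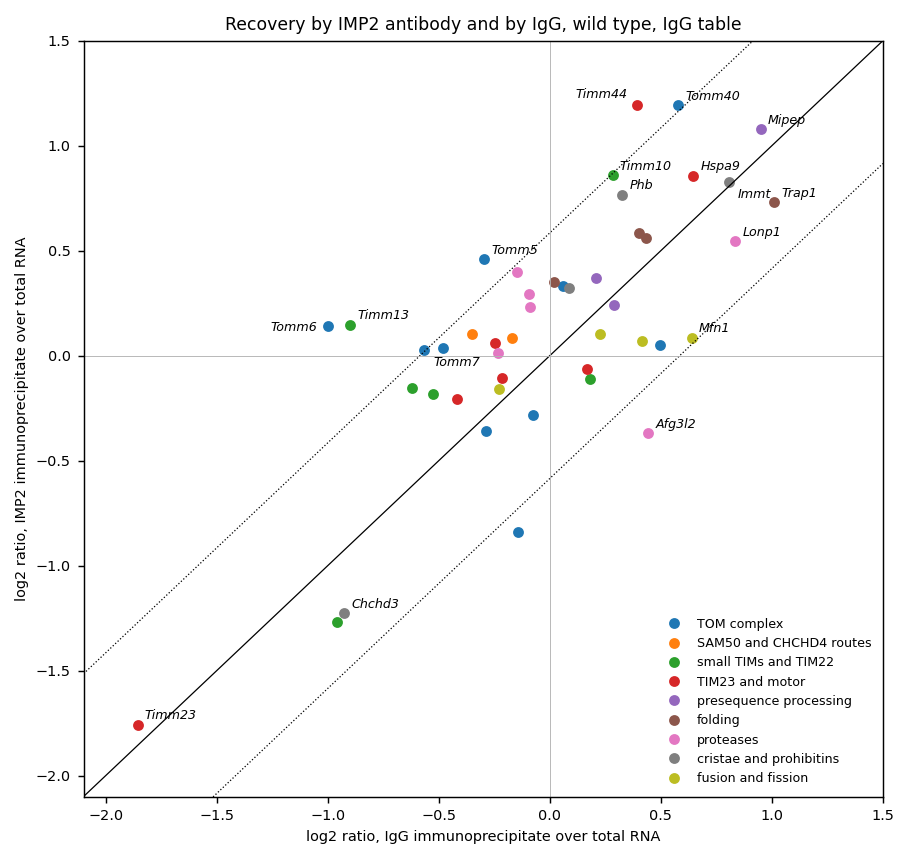
Recovery of 46 members in wild-type tissue of the IgG table, with the log2 ratio of IMP2 immunoprecipitate over total RNA on the vertical and of IgG immunoprecipitate over total RNA on the horizontal axis. The solid line marks equal recovery and the dotted lines 1.5-fold either way: Tomm6, Timm13 and Timm44 lie above the upper line, Afg3l2 below the lower one, and Trap1, Mipep, Lonp1 and Immt between the dotted lines at 0.81 to 1.01 for IgG.

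Afg3l2, a subunit of the AAA protease that faces the matrix, was the member lower with IMP2, with 55.0 CPM against 96.7 CPM with IgG, a ratio of 0.57 (0.43 to 0.74). Its total RNA libraries had 35.9 and 103.9 CPM, a wider gap than that between the immunoprecipitates. Timm50 had a similar gap, with 41.5 and 135 CPM in total RNA. Chchd3, a cristae organizer listed in this table alone, had 167 CPM with IMP2, 205 CPM with IgG and 330 and 449 CPM in total RNA. Both immunoprecipitates lay below total RNA for it. Values did not overlap total RNA, in either direction, for 69.8% of all genes with IMP2 and 74.2% with IgG. Timm23, the channel of the TIM23 complex, rested on 2 counts with IMP2 and 6 with IgG, too few for a direction. Of the mitofusins, Mfn2 had 551 CPM with IMP2 and 699 CPM with IgG, a ratio of 0.79 (0.73 to 0.86), and Mfn1 had 95.1 and 140 CPM, a ratio of 0.68 (0.56 to 0.83).

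Of the 49 related symbols, 36 were tested in the IgG table. None was called over total RNA by either antibody. For IMP2 over IgG, 3 were above and 6 below 1.5-fold, where 15.8% and 20.8% of all genes were. Fis1, a fission factor of the outer membrane, led the higher ones at a log2 ratio of 0.88, and Pitrm1, which degrades cut presequences, was lowest at -1.08. The errors of Pitrm1 over total RNA were among the larger of the 36 with either antibody, so its place is uncertain.

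A fit of both tables together, over the 1189 shared genes and with a term for the table, sets 3 wild-type IMP2 immunoprecipitates against 4 total RNA libraries and 1 IgG immunoprecipitate. Errors and p-values for IgG assume that its lone library varies like the other groups, which these data cannot check. For IMP2 over total RNA, 9 members were higher, where 14.0% of all genes were, and 1 was lower, where 14.5% of all genes were. The 9 were the 8 above and Hspa9, at 0.49 ± 0.14 (edgeR adjusted p = 0.0266). For IgG over total RNA, 6 members were higher, where 11.6% of all genes were: Trap1 at 1.28, Mipep at 1.14, Lonp1 at 1.07, Immt at 0.97, Mfn1 at 0.79 and Hspa9 at 0.71. One member, Timm13, was lower at -0.75 (adjusted p = 0.0457), where 11.9% of all genes were. For IMP2 over IgG, 0 members were higher and 1 was lower, Mfn1 at -0.84 ± 0.17 (edgeR adjusted p = 0.0306), where 0.336% and 1.26% of all genes were. The annotated gene Mfn1 overlaps Gnb4 by 639 bases, so its counts are uncertain where strand was not used. Of the 6 members past 1.5-fold in the IgG table, Tomm6 had 0.94 ± 0.29 (adjusted p = 0.131) and Timm13 0.76 ± 0.26 (adjusted p = 0.155) in this fit, and Timm44 had 0.31 ± 0.23 (adjusted p = 0.505). Tomm5 at 0.34, Tomm7 at 0.26 and Tomm40 at 0.18 were not called either.

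Between the tables, recoveries from separate libraries lay along each other. Across the 27 members, wild-type IMP2 recovery in the both-genotype table and in the IgG table had a Pearson correlation of 0.790, and 0.781 across all 1189 genes. Knockout IMP2 recovery and IgG recovery had 0.769 across the members and 0.701 across all genes. The pairs share no library and do share the tissue, the listing and the protocol.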

How the data were processed

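RNA from cold-exposed brown fat, before and after immunoprecipitation, was isolated with Trizol and a Qiagen kit, checked by bioanalyzer, and made into libraries with a TruSeq DNA LT kit, per the labels' protocols. The authors deposited whole-number read counts per RefSeq transcript, in 2 tables. TopHat2 2.0.8, Cufflinks 2.1.1 and mm10 are named in the submitters' processing notes. No source used here names the counter, the strand setting or the treatment of reads with several matches, so members with processed copies elsewhere, such as Hspe1 and Timm23, are uncertain. The both-genotype table lists a selected set, and no source used here gives the rule. The 14 liver samples were not analysed here.

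Rows without a symbol were named by accession where RefSeq allowed. Those left unnamed, 3 transcripts in the both-genotype table and 22 in the IgG table, were dropped before depth and scaling were computed. They held 8.65% to 29.2% and 7.39% to 15.8% of a library's counts. For each symbol the row with the highest summed count was kept, with rows deposited with a symbol taken first. Counts were filtered with filterByExpr, scaled by TMM and fitted with edgeR 4.0.16 (glmQLFit and glmQLFTest, R 4.3.3), with 4 groups of 2 in the both-genotype table (residual df 4) and 3 groups in the IgG table (residual df 1), and Benjamini-Hochberg adjustment over all genes. CPM values are relative to the listed genes, so levels are not compared between tables or between genes. Standard errors are the log2 ratio divided by the root of F. IMP2 against IgG used a prior count of 2, a 1.5-fold limit and exact 95% binomial intervals, which cover counting error only. Among members in the IgG libraries, 38 had at least 50 counts in each. Every member of the both-genotype table could be named, and per-library values were given for those called or of extreme size. Members, gene lists and tests were chosen with earlier results of these data known. DESeq2 1.42.0 and limma 3.58.1 were alternatives. The statistics were also run on simulated counts with known changes. Those counts were drawn independently for each library and held no selection of genes. They therefore cannot check the effect of shared tissue or of the selected listing.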

Additional observations from a re-analysis of the deposited data

How the results depend on the processing

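No member that was called changed sign under any alternative run, while 189 of the 3105 values of single members under an alternative had another sign with no call in either fit. No paired analysis was run because the labels give no pairing and the groups share no replicate numbers. Which total RNA and immunoprecipitate libraries came from the same tissue is not stated, and the unpaired fits take no account of it. Members higher in knockout immunoprecipitates were 14 with upper-quartile scaling and 13 each with library size alone and with DESeq2, and members lower were 0 with upper-quartile scaling, 0 with library size alone and 1 with the compared groups only, but 3 with DESeq2, which added Timm13. Members that gained a call as higher in knockout tissue under at least 1 alternative were Spg7, Hspd1, Pmpca, Opa1, Phb2 and Hspa9, and in wild-type tissue Spg7, Pmpca, Phb2 and Hspa9. The median of all genes shifted by 0.17 and 0.13 under those scalings in knockout tissue and by 0.14 with upper-quartile scaling in wild-type tissue. Members lower in wild-type immunoprecipitates were 1 (Tomm40l) with DESeq2, with limma-voom and in the fit of both tables. DESeq2 also called 1 member lower in each direct genotype comparison, of the immunoprecipitates and of total RNA. Leaving out 1 library gave 4 to 8 members higher and 0 to 1 lower in wild-type tissue, 7 to 8 higher and 0 to 1 lower in knockout tissue, and 0 to 0 in the genotype comparisons. For IMP2 over IgG, the higher and lower members were 4 and 3 with upper-quartile scaling, 3 and 4 with library size alone, 6 and 2 with a prior count of 0.5, 2 and 0 past 2-fold, and 0 and 1 in the fit of both tables. Library size alone shifted the median of all genes by -0.17 for IMP2 over IgG. For IgG over total RNA the fit of both tables, added after seeing the data, gave 6 members higher and 1 lower. Keeping rows named by accession, also added later, left every count of members as it was. The cause of these changes was not tested. Leaving out library 15 or 20 of the IgG table leaves no residual degrees of freedom and gives values with no test: the members' median was 0.23 and 0.29 for IMP2 over total RNA (0.10 with both), and -0.11 and 0.12 for IgG over total RNA (-0.03 with both). Depth limits Timm23, Timm8a1 and Tomm20l, with 2 to 4 counts in the IMP2 immunoprecipitate.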
